A study of Homo sapiens with 26 samples.

Results

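The 38 genes examined here encode aminoacyl-tRNA synthetases, the enzymes that join each amino acid to its transfer RNA. They were taken by symbol from 26485 genes measured by RNA sequencing, and all 38 passed the filter on low counts in both experiments. Of these, 21 encode cytosolic enzymes and 17 encode mitochondrial ones, which carry symbols ending in 2. TARSL2, now called TARS3, also has an old symbol ending in 2 but was counted as cytosolic, because it encodes a cytosolic threonyl-tRNA synthetase-like protein. Symbols are those of the deposited tables, so that AARS, IARS, QARS and YARS stand for the genes now called AARS1, IARS1, QARS1 and YARS1.

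All libraries came from KELLY, a human cell line established from a neuroblastoma and carrying extra copies of MYCN. In culture, 3 KELLY lines carried the doxycycline-inducible vector FH1UTG, which was empty (EV) or expressed a hairpin, sh4 or shAMB, against RUNX1T1, a gene for a transcriptional co-repressor. Each line received DMSO or doxycycline for 72 h, with 3 libraries per group and 18 in all. The tables name these groups Neg and Pos, read here as DMSO and doxycycline, and every direction in culture rests on that reading. The tumour libraries came from KELLY xenografts, 4 from mice on control food and 4 labelled RUNX1T1 KO from mice on doxycycline food. The study's methods describe subcutaneous tumours of hairpin-carrying cells in NSG mice, and the labels do not name the hairpin. The paper gives the hairpin used in vivo as its first, built on an Ambion siRNA sequence, which the name shAMB matches. No xenograft group is labelled as empty vector, so that in the tumours the effects of doxycycline and of the hairpin cannot be told apart. Nothing states that replicates were separate cultures, so that in culture p-values measure the spread between libraries, which may be technical. An adjusted p is from the edgeR quasi-likelihood test with Benjamini-Hochberg adjustment across the genes of a table, and a gene was called higher or lower (rose or fell) where it was under 0.05. Totals were 35115915 to 54736733 expected counts in culture and 47346063 to 62378060 in the xenografts, and even the least counted member, TARSL2, had at least 155 counts in every library.

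RUNX1T1 RNA did not pass the test in any of the 4 main comparisons. Its level in CPM (counts scaled to library size by edgeR) was 44.1, 39.3 and 42.4 in EV with DMSO and 36.5, 37.8 and 38.6 with doxycycline. In sh4 it was 34.7, 33.3 and 35.01 with DMSO and 31.2, 33.9 and 30.1 with doxycycline, while shAMB had 40.8, 42.00 and 39.9 CPM with DMSO and 41.3, 44.1 and 42.2 CPM with doxycycline. Control xenografts had 34.3, 43.1, 30 and 34.4 CPM and those labelled KO 24.3, 35.2, 27.3 and 33.9 CPM. Without doxycycline, RUNX1T1 was lower in sh4 than in EV by a log2 change of -0.29 (adjusted p = 0.0144). The groups are named by their labels throughout, and no lower RUNX1T1 RNA level with doxycycline passed the test. Set against EV, the effect on RUNX1T1 RNA in shAMB was higher by 0.21 (adjusted p = 0.0353), the direction opposite to a knockdown. The paper reports lower RUNX1T1 in KELLY cells given doxycycline, for each of its hairpins. It also reports loss of RUNX1T1 immunostaining in KELLY tumours after knockdown. The libraries here hold RNA only, and the level of RUNX1T1 protein was not tested. All 9 marker genes of sympathetic neuroblasts were above 1 CPM on average in every group, and their sum was 3322 to 3401 CPM in shAMB with DMSO but 7291 to 7978 with doxycycline. In sh4 it was 3325 to 3818 CPM with DMSO and 4673 to 5880.2 with doxycycline, and in the xenografts 3441 to 4182 CPM in controls and 6936 to 9253 in tumours labelled KO. MYCN, 1 of these markers and a driver of genes of protein synthesis, had log2 changes of 0.68, 1.57 and 1.46 in sh4, shAMB and the xenografts, all called. The summed fibroblast markers were at 48.5 to 82.0 CPM in control tumours and 74.9 to 116 CPM in those labelled KO, beside 70.8 to 131 CPM over the culture libraries, and the endothelial markers at 8.47 to 14.4 and 10.7 to 15.6 CPM in the xenografts. VWF was the only endothelial marker averaging at least 1 CPM in the xenografts, and in culture it rose by 2.42 in sh4 and 3.09 in shAMB (log2). Leukocyte markers summed to at most 2.74 CPM, and the haemoglobin genes HBB, HBA1 and HBA2 were at 0 in every xenograft library. The tumours grew in mice and the processing notes name the human genome hg38, so that these human genes do not measure host stroma, vessels or blood. The part of these markers in the synthetase values was not tested.

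Cells hold separate sets of synthetases for the cytosol and for mitochondria, although KARS and GARS each supply both compartments from 1 gene. In the cytosol 8 of the enzymes sit in the multi-synthetase complex, held together by the scaffold proteins AIMP1, AIMP2 and EEF1E1. Synthetase genes are textbook targets of ATF4, a transcription factor made under amino acid shortage, and MYC proteins are known to drive genes of protein synthesis. ATF4 binds the C/EBP-ATF element, searched here as TGATGNAA, and MYC with MAX binds the E-box, searched as CACGTG. Both were looked for on both strands of RefSeq promoters (GRCh38.p14, 250 bases before to 50 after each start site), which were matched for 30 of the 38 members with 39 windows. Genes with no matched entry included AARS2, DARS, LARS, TARSL2, VARS, VARS2 and YARS. The C/EBP-ATF element lay in at least 1 window of 7 of 16 cytosolic genes (43.8%) and 1 of 14 mitochondrial genes (7.14%), against 4.46% of all 27305 genes. The E-box lay in 1 of 16 cytosolic genes (6.25%) and 3 of 14 mitochondrial genes (21.4%), against 8.77% of all genes. Such a match is a description of the letters and not a binding site. The 8 windows with the C/EBP-ATF element and the 4 with an E-box are all shown. AARS, IARS and EARS2 among them had large changes described below, as did QARS, FARSB and FARSA, which had neither element in a matched window. Each run reads in the direction of the gene, capitals mark the element on either strand, and the position is that of its first capital from the start site.
AARS C/EBP-ATF element (chr16:70289675-70289704, - strand, position -187): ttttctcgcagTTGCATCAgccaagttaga
CARS C/EBP-ATF element (chr11:3057407-3057436, - strand, position -2): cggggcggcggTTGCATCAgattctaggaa
GARS C/EBP-ATF element (chr7:30594834-30594863, + strand, position -33): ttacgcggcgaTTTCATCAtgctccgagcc
IARS C/EBP-ATF element (chr9:92293692-92293721, - strand, position -13): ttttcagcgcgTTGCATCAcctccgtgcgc
MARS C/EBP-ATF element (chr12:57488053-57488082, + strand, position -4): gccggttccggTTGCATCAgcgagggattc
NARS C/EBP-ATF element (chr18:57621804-57621833, - strand, position +15): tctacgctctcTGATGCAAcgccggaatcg
TARS C/EBP-ATF element (chr5:33440956-33440985, + strand, position +3): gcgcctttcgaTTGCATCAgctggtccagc
YARS2 C/EBP-ATF element (chr12:32756076-32756105, - strand, position -197): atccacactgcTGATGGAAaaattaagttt
CARS2 E-box (chr13:110706501-110706530, - strand, position -3): tgctgggatgcaCACGTGcttcgctaacag
EARS2 E-box (chr16:23557348-23557377, - strand, position -15): cagggagaagccCACGTGtgctattccatc
IARS E-box (chr9:92293866-92293895, - strand, position -186): tggttcgttttcCACGTGgaggcgcaaaac
MARS2 E-box (chr2:197705346-197705375, + strand, position -11): atgcgcctctcaCACGTGctgtcagaacgc

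The plot of levels ranks the genes by abundance. Levels are compared between genes as CPM per kilobase of the deposited gene length. In EV cells with DMSO the 5 highest were GARS at 181 ± 7.898, SARS at 156 ± 7.38, TARS at 152 ± 5.32, EPRS at 149.8 ± 10.2 and KARS at 148 ± 1.68 CPM per kilobase (SD, n = 3). SARS, TARS, EPRS and KARS each differed from the next in that order by less than the larger SD. EPRS, the fused glutamyl-prolyl enzyme, had the highest count of any member, and GARS and KARS serve both compartments. The highest mitochondrial gene was IARS2 at 75.8 ± 4.48 CPM per kilobase. The lowest were TARSL2 at 1.73 ± 0.284, the mitochondrial prolyl enzyme gene PARS2 at 3.12 ± 0.304 and SARS2 at 4.08 ± 1.505 CPM per kilobase. In the GENCODE annotation, 71.7% of the SARS2 exon sequence is shared with an overlapping gene without a symbol on the same strand. Whether that gene was annotated when reads were counted is not given. The SARS2 value is therefore taken as uncertain, and the effect of the overlap was not tested.

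**Figure D1:**
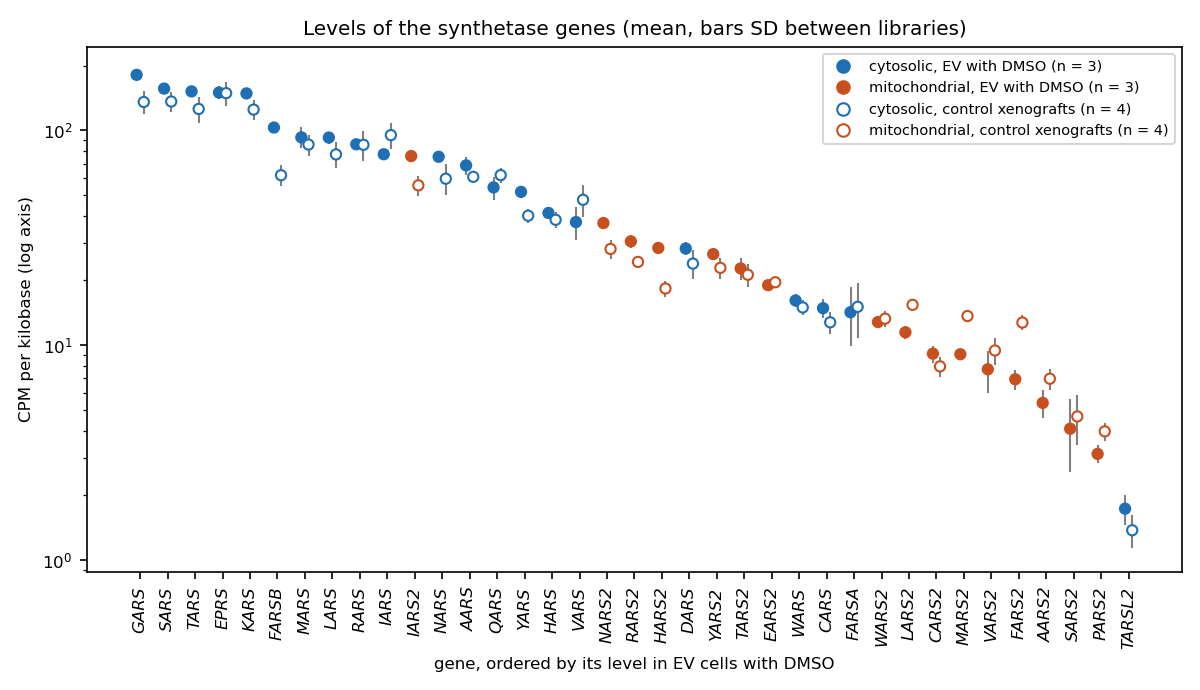
Level of 37 synthetase genes in CPM per kilobase on a log axis, as mean with SD between libraries, in EV cells with DMSO (filled, n = 3) and control xenografts (open, n = 4). Cytosolic genes fill the 10 highest places in EV cells and TARSL2 the lowest, and levels in culture and xenografts were scaled separately.

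Summed over members, cytosolic genes stood at 1643 ± 3.101 CPM per kilobase in EV with DMSO and mitochondrial genes at 372 ± 3.01, a ratio of 4.41 ± 0.0423 (SD, n = 3). That ratio was 4.59 ± 0.061 in EV with doxycycline, 4.45 ± 0.015 and 4.42 ± 0.104 in sh4, and 4.43 ± 0.0529 and 4.54 ± 0.0162 in shAMB, with DMSO first. In the xenografts it was 4.42 ± 0.194 in controls and 4.54 ± 0.0688 in tumours labelled KO (SD, n = 4). The ratio therefore stayed between 4.41 and 4.59 in all 8 group means, although the sums themselves differed. In shAMB the cytosolic sum was 5177 ± 8.12 CPM with DMSO and 4462 ± 124 with doxycycline, and the mitochondrial sum 1127 ± 9.99 and 985 ± 23.2 CPM. In the xenografts the cytosolic sum was 4493 ± 449.6 CPM in controls and 3873 ± 114 in those labelled KO. In bulk RNA, fewer cells of a type and less RNA per cell cannot be told apart.

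Pairs of genes that charge the same amino acid differed widely in how much RNA each compartment had. In EV with DMSO the ratio of the cytosolic to the mitochondrial gene per kilobase was 41.2 ± 11.9 for SARS over SARS2 (SD, n = 3), the widest of these pairs, while IARS and IARS2 stood level at 1.02 ± 0.00781. AARS over AARS2 was 12.8 ± 0.704 and MARS over MARS2 was 10.2 ± 0.8.

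Doxycycline alone left the synthetase genes without a call. In the EV line none of the 38 members passed an adjusted p of 0.05 in the edgeR quasi-likelihood test, and 0.0134% of all genes were called higher and 0.0805% lower. There were 8 members with an unadjusted p under 0.05, and DESeq2 called 0. The median log2 change was -0.00 for cytosolic and 0.03 for mitochondrial genes, beside 0.01 for all genes. The hairpin lines were also compared with EV without doxycycline. No member was called by edgeR in sh4 (14 at an unadjusted p under 0.05) or in shAMB (1 at an unadjusted p under 0.05). DESeq2 called 1 member in sh4, LARS2, and 0 in shAMB. In sh4 0.597% of all genes were called higher and 0.523% lower, and in shAMB 1.11% and 0.416%.

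In the sh4 line 15 of 38 members changed with doxycycline, 7 higher (18.4%) and 8 lower (21.1%). These shares were near those of all genes, of which 22.9% were called higher and 18% lower. Cytosolic genes split 4 higher and 4 lower of 21, and mitochondrial genes 3 higher and 4 lower of 17. QARS, which encodes the cytosolic glutaminyl-tRNA synthetase, fell most. Its level was 199.5, 187 and 169 CPM in the DMSO libraries and 94.2, 108 and 127 CPM with doxycycline, and the groups did not overlap. That is a log2 change of -0.76 (standard error 0.10, adjusted p = 2.29e-05). FARSB, the gene of the beta subunit of phenylalanyl-tRNA synthetase, went from 216, 242 and 244 to 189, 181 and 166 CPM. It fell with a log2 change of -0.39 (standard error 0.059, adjusted p = 6.35e-05), and the groups were again separate. DARS, for aspartate, fell from 77.2, 83.4 and 88.5 to 72.5, 68.3 and 61.04 CPM, with a log2 change of -0.30 (standard error 0.070, adjusted p = 0.00258). TARSL2 rose from 4.07, 4.56 and 4.82 to 5.998, 6.87 and 5.25 CPM, with a log2 change of 0.43 (standard error 0.14, adjusted p = 0.0184). Its call was lost when only the sh4 libraries were fitted (adjusted p = 0.0647) or when DMSO replicate 1 (0.0976) or doxycycline replicate 2 (0.104) was left out.

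Among the mitochondrial genes of the sh4 line, AARS2, for alanine, had 39.7, 33.3 and 29.4 CPM with DMSO and 19.1, 21.8 and 29.6 with doxycycline. It fell with a log2 change of -0.54 (standard error 0.15, adjusted p = 0.0106), although the groups overlapped by 1 library. LARS2, for leucine, fell from 57.3, 56.1 and 53.01 to 41.99, 42.7 and 47.5 CPM, with a log2 change of -0.33 (standard error 0.057, adjusted p = 2.24e-04) and no overlap. RARS2, for arginine, rose from 47.1, 52.7 and 53.8 to 70.6, 65.8 and 56.4 CPM, with a log2 change of 0.33 (standard error 0.085, adjusted p = 0.00577). The calls of AARS2 and RARS2 were lost when only the sh4 libraries were fitted (adjusted p = 0.0756 and 0.0524). They were also lost without doxycycline replicate 1 for AARS2 (0.0564) and without DMSO replicate 1 for RARS2 (0.0543). The count of 15 members is sensitive to single libraries, with 9 called without DMSO replicate 1 and 23 without doxycycline replicate 3. Of all genes, 17.2% were higher and 15.1% lower without DMSO replicate 1, and 26.3% and 27.1% without doxycycline replicate 3. Fitted on the sh4 libraries alone, the test called 5 members, 1 higher and 4 lower, against 15.1% and 10.7% of all genes. Set against the doxycycline effect in EV, 4 members were higher and 6 lower in sh4, against 17.8% and 14.7% of all genes. The fall of DARS and the rise of TARSL2 were not among these 10. The 10 became 18 without sh4 doxycycline replicate 3. QARS had the largest such difference, with -0.98 (log2 scale, standard error 0.14, adjusted p = 1.06e-04).

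In the shAMB line 26 of 38 members changed, 9 higher (23.7%) and 17 lower (44.7%). Of all genes 37.6% were called higher and 28.4% lower, so that lower calls outnumbered higher ones among the synthetases and not in the table as a whole. That contrast depends on the fit, since all genes were 33.1% higher and 32.6% lower with RLE factors, and 32.2% higher and 38.9% lower with trends over GC content and gene length removed. Without the filter on low counts the split was 6 higher and 20 lower, against 26.4% and 21.9% of all genes. The median log2 change was -0.16 for cytosolic and -0.07 for mitochondrial genes, beside 0.10 for all genes. Cytosolic genes numbered 4 higher and 11 lower of 21, and mitochondrial genes 5 higher and 6 lower of 17. The plot of fold changes shows the values gene by gene.

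**Figure D2:**
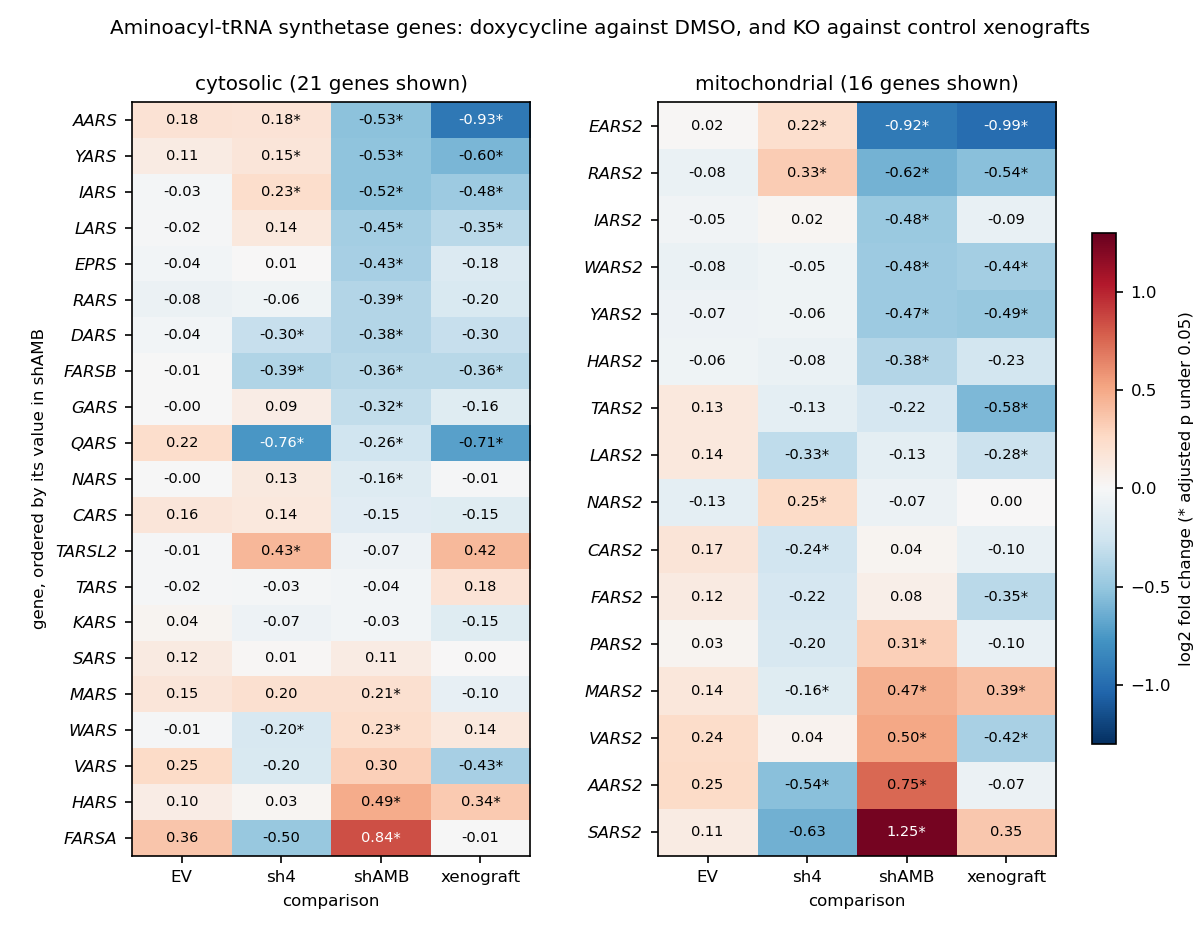
Log2 fold change of cytosolic (left) and mitochondrial (right) synthetase genes with doxycycline against DMSO in the EV, sh4 and shAMB lines and in xenografts labelled KO against controls, ordered by the value in shAMB. Asterisks mark adjusted p under 0.05, and the EV columns hold none. The mitochondrial panel shows 16 of 17 genes.

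The 3 cytosolic genes that fell most in shAMB encode the alanyl, tyrosyl and isoleucyl enzymes. AARS was at 222, 205 and 232 CPM with DMSO and 151, 154 and 151 CPM with doxycycline. Every doxycycline library lay below every DMSO library, with a log2 change of -0.53 (standard error 0.068, adjusted p = 5.42e-06). YARS fell from 159.5, 159.6 and 165 to 111, 117 and 108 CPM, with a log2 change of -0.53 (standard error 0.048, adjusted p = 1.23e-07). IARS fell from 372, 382 and 368 to 267, 262 and 252 CPM, with a log2 change of -0.52 (standard error 0.053, adjusted p = 4.39e-07), and neither gene's groups overlapped. LARS, EPRS, RARS, DARS, FARSB, GARS, QARS and NARS fell too, by 0.16 to 0.45 on the log2 scale. FARSA, the alpha subunit gene of the phenylalanyl enzyme, moved against its partner FARSB. FARSA went from 22.5, 17.7 and 23.4 to 32.2, 39.9 and 41.5 CPM, with a log2 change of 0.84 (standard error 0.29, adjusted p = 0.0178), and its call was lost without DMSO replicate 2 (adjusted p = 0.0731) or doxycycline replicate 3 (0.0553). FARSA varied widely, from 17.7 to 50.96 CPM over the culture libraries. With trends over GC content and gene length removed it was at -0.00. HARS, WARS and MARS rose by 0.49, 0.23 and 0.21 on the log2 scale, and MARS was at -0.05 with those trends removed.

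Of the mitochondrial genes, EARS2, which encodes the glutamyl-tRNA synthetase of mitochondria, fell most. Its level was 75.5, 70.00 and 78.2 CPM with DMSO and 38.8, 39.9 and 39.7 CPM with doxycycline. The level with doxycycline was 0.529 of that with DMSO, with a log2 change of -0.92 (standard error 0.045, adjusted p = 1.08e-10). RARS2 fell from 58.7, 62.8 and 56.5 to 41.6, 39.3 and 34.96 CPM, with a log2 change of -0.62 (standard error 0.086, adjusted p = 1.32e-05). WARS2, IARS2, YARS2 and HARS2 fell by 0.38 to 0.48 on the log2 scale. AARS2 rose from 23.6, 20.3 and 22.9 to 32.7, 37.1 and 42.4 CPM, with a log2 change of 0.75 (standard error 0.16, adjusted p = 5.66e-04). SARS2 rose from 7.15, 5.02 and 7.25 to 11.4, 15.4 and 19.2 CPM, with a log2 change of 1.25 (standard error 0.31, adjusted p = 0.00243), on exons mostly shared with the overlapping gene. VARS2, MARS2 and PARS2 rose by 0.50, 0.47 and 0.31. Set against the doxycycline effect in EV, 4 members were higher in shAMB, namely SARS2, HARS, MARS2 and WARS, and 19 were lower, against 23.7% and 21.7% of all genes.

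**Figure D3:**
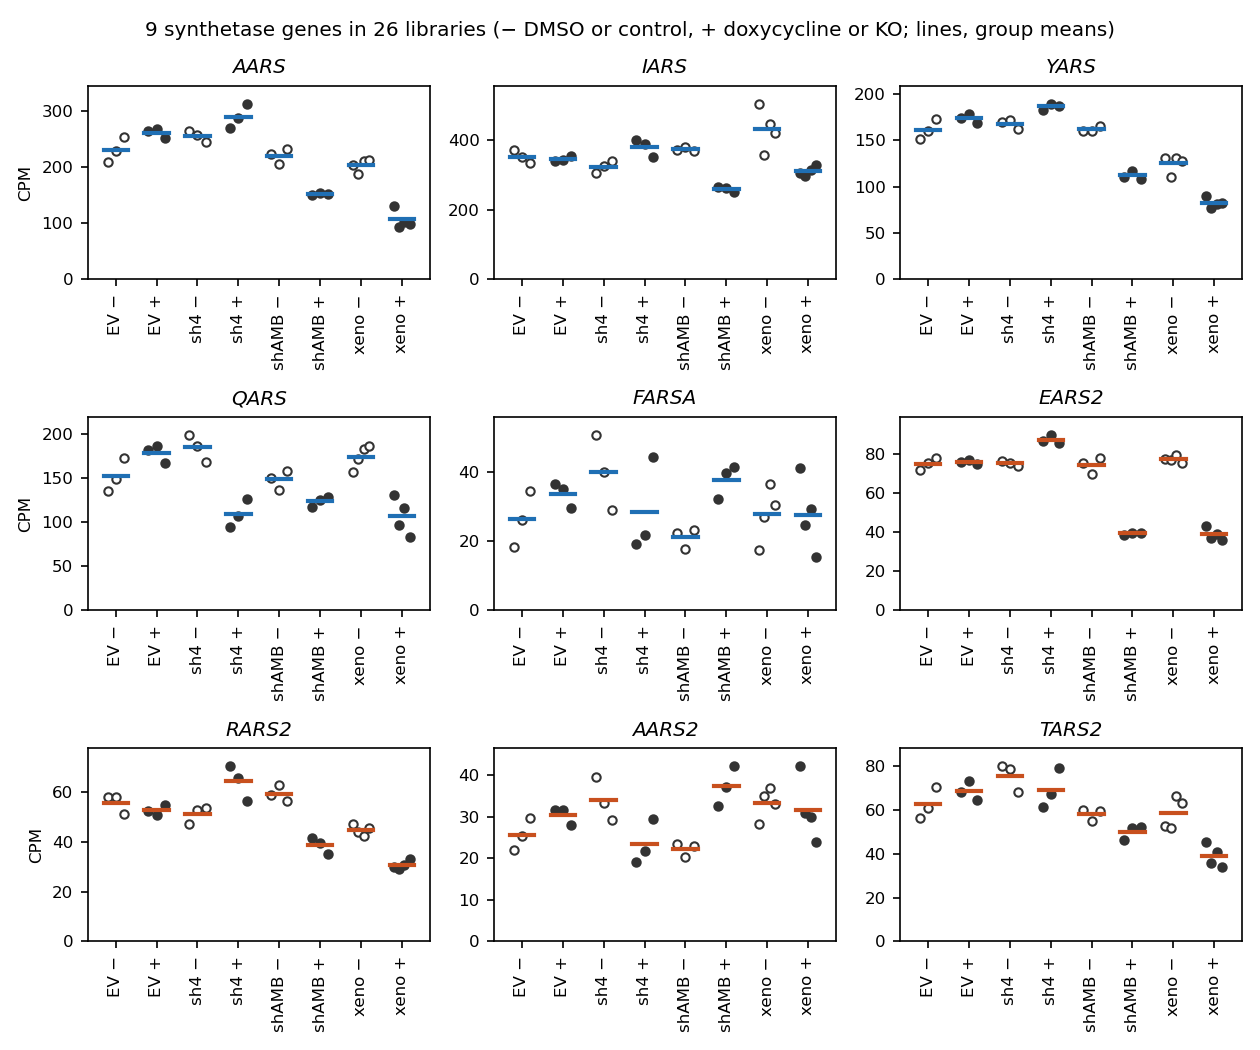
CPM of 9 synthetase genes in each of the 26 libraries, with DMSO or control libraries open, doxycycline or KO libraries filled, and lines at group means. EARS2 is at 38.8 to 39.9 CPM in shAMB with doxycycline and at 36.1 to 43.4 CPM in xenografts labelled KO, below all other groups.

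The hairpin lines differed in direction for 8 members. Called in both lines were 11 members, of which 5 rose in sh4 and fell in shAMB (AARS, EARS2, IARS, RARS2 and YARS), 3 fell in sh4 and rose in shAMB (AARS2, MARS2 and WARS), and 3 fell in both (DARS, FARSB and QARS). Called higher in both were 0 members. Of all genes, 6.94% rose in sh4 and fell in shAMB, 5.41% did the reverse, 7.11% fell in both and 8.75% rose in both. A test of the difference itself, the effect in sh4 minus that in shAMB, called 17 members higher and 10 lower, against 27.8% and 33.1% of all genes. The genes given next were picked for opposite calls in the same libraries, so that this test was nearly bound to pass for them. The difference was 1.13 (log2 scale, standard error 0.063, adjusted p = 1.11e-09) for EARS2. For RARS2 it was 0.95 (log2 scale, standard error 0.12, adjusted p = 8.60e-06). It was 0.75 (log2 scale, standard error 0.075, adjusted p = 6.02e-07) for IARS, and 0.72 and 0.68 for AARS and YARS. With doxycycline in sh4, IARS stood at 400.0, 390.0 and 353 CPM and with DMSO at 305, 328 and 341. AARS stood at 269, 287 and 312 against 264, 257 and 244 CPM, although AARS in the EV line had a log2 change of the same size (0.18, adjusted p = 0.672). YARS was at 183, 189 and 187 against 169, 172 and 162 CPM. Set against EV the sh4 rise did not pass the test for AARS (-0.00, adjusted p = 0.998) or YARS (0.04, adjusted p = 0.629). Nor did the sh4 falls of DARS and WARS pass it. EARS2 was at 86.7, 90.05 and 85.5 against 76.4, 75.4 and 74.04 CPM. All 4 rises in sh4 were smaller than the falls in shAMB. On the opposite side AARS2 had -1.29 (log2 scale, standard error 0.22, adjusted p = 1.34e-04).

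**Figure D4:**
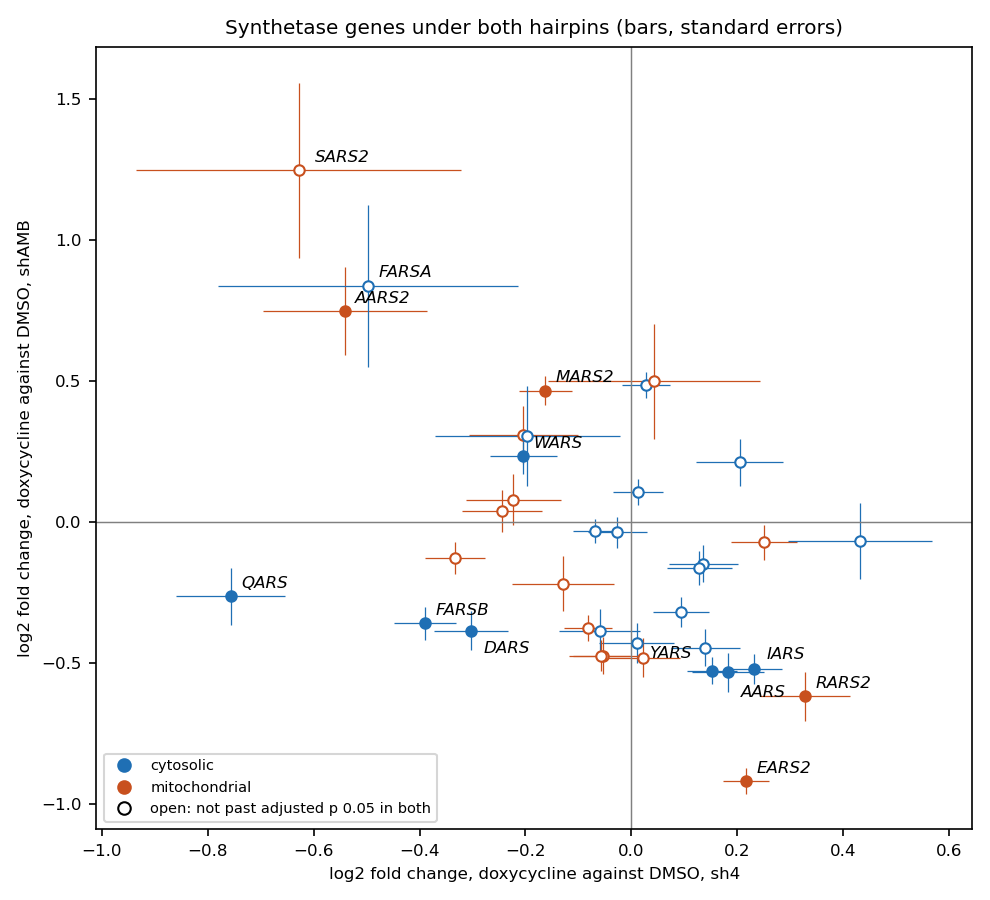
Log2 fold change of 37 synthetase genes with doxycycline in sh4 (horizontal) and shAMB (vertical), with standard errors as bars, cytosolic in blue and mitochondrial in orange. Filled points were called in both lines, and 8 of these 11 lie in the quadrants of opposite direction.

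In the xenografts 17 of 38 members differed between tumours labelled KO and controls, 2 higher (5.26%) and 15 lower (39.5%). Of all genes 21.2% were called higher and 19.9% lower. Cytosolic genes numbered 1 higher and 7 lower of 21 (median -0.16) and mitochondrial genes 1 higher and 8 lower of 17 (median -0.23), beside a median of 0.02 for all genes. EARS2 was at 77.7, 77.00, 79.6 and 75.7 CPM in controls and 43.4, 37.04, 39.3 and 36.1 CPM in tumours labelled KO. It fell with a log2 change of -0.99 (standard error 0.084, adjusted p = 1.60e-05), and the groups were separate. AARS fell from 202, 188, 211 and 211 to 131, 93.8, 103 and 98.8 CPM, with a log2 change of -0.93 (standard error 0.11, adjusted p = 1.00e-04). QARS fell from 157, 171, 183 and 186 to 131, 97.2, 116 and 83.2 CPM, with a log2 change of -0.71 (standard error 0.13, adjusted p = 0.0017). YARS fell from 130.3, 110.3, 131 and 128 to 89.5, 77.4, 81.2 and 82.3 CPM, with a log2 change of -0.60 (standard error 0.086, adjusted p = 3.45e-04). IARS fell from 506, 357, 449 and 422 to 305, 297, 315 and 329 CPM, with a log2 change of -0.48 (standard error 0.11, adjusted p = 0.00512). None of these 5 genes overlapped between the groups. The 5 were picked for large called changes, and the share of all genes without overlap was not counted.

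TARS2, which charges mitochondrial threonine tRNA, fell in the xenografts from 52.6, 51.9, 66.5 and 63.2 to 45.6, 35.9, 40.9 and 33.9 CPM, with a log2 change of -0.58 (standard error 0.12, adjusted p = 0.00317). RARS2 fell from 47.1, 43.9, 42.3 and 45.5 to 29.9, 29.1, 30.7 and 33.2 CPM, with a log2 change of -0.54 (standard error 0.085, adjusted p = 5.83e-04). The other members called lower were VARS, FARSB, LARS, YARS2, WARS2, VARS2, FARS2 and LARS2, by 0.28 to 0.49 on the log2 scale, with overlapping groups for VARS, VARS2, FARS2 and LARS2. HARS and MARS2 rose by 0.34 and 0.39. Xenografts and shAMB shared 10 members called lower in both (AARS, EARS2, FARSB, IARS, LARS, QARS, RARS2, WARS2, YARS and YARS2), of 17 lower in shAMB and 15 lower in the xenografts, and 2 called higher in both (HARS and MARS2). Of the genes tested in both experiments, 16.7% were lower in both and 17.2% higher in both. VARS2 rose in shAMB and fell in the xenografts, a pattern of 0.327% of genes, although its value in shAMB was -0.13 and not called with GC content and length trends removed. The reverse pattern had 0 members (0.341% of genes).

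The enzymes of the multi-synthetase complex (DARS, EPRS, IARS, KARS, LARS, MARS, QARS and RARS) and its scaffolds were counted apart from the other cytosolic genes. In shAMB 6 of the 8 enzymes fell, MARS rose and KARS did not pass the test (log2 change -0.03), with a median of -0.39. Of the 13 cytosolic synthetases outside the complex, 3 rose and 5 fell, with a median of -0.07, and of all genes 37.6% rose and 28.4% fell. AIMP1, the scaffold that carries arginyl-tRNA synthetase, was at 177, 192 and 177 CPM with DMSO and 123, 123 and 112 with doxycycline, with a log2 change of -0.61 (standard error 0.079, adjusted p = 6.07e-06). EEF1E1, also known as AIMP3, fell from 89.03, 89.4 and 89.3 to 59.8, 59.8 and 51.8 CPM, with a log2 change of -0.64 (standard error 0.080, adjusted p = 4.19e-06). AIMP2, the scaffold that binds the lysyl enzyme, rose from 43.4, 44.4 and 46.1 to 59.99, 63.3 and 62.2 CPM, with a log2 change of 0.47 (standard error 0.077, adjusted p = 6.51e-05). In sh4 AIMP2 fell from 55.8, 53.04 and 49.1 to 32.6, 34.1 and 39.6 CPM, with a log2 change of -0.57 (standard error 0.077, adjusted p = 2.18e-05), and the difference between the hairpins was -1.04 (log2 scale, standard error 0.11, adjusted p = 1.03e-06). AIMP1 fell in sh4 as well, from 142, 157 and 161 to 138, 136 and 113 CPM, by 0.25 on the log2 scale (adjusted p = 0.0204), a call that was lost without any one of DMSO replicate 2, DMSO replicate 3 or doxycycline replicate 3 (adjusted p = 0.0653, 0.0707 and 0.0729). EEF1E1 in sh4 had a log2 change of 0.01. In the EV line the scaffolds had log2 changes of -0.12 for AIMP1, 0.17 for AIMP2 and -0.06 for EEF1E1, none called.

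In the xenografts, 3 of the 8 complex enzymes fell (IARS, LARS and QARS) and none rose, with a median of -0.25, where 19.9% of all genes fell and 21.2% rose. AIMP1 fell from 125, 91.9, 109 and 109.6 to 75.3, 70.8, 77.7 and 74.8 CPM, with a log2 change of -0.55 (standard error 0.097, adjusted p = 0.00124) and no overlap. EEF1E1 went from 49.9, 38.98, 48.6 and 47.5 to 33.9, 34.00, 37.5 and 40.1 CPM, with a log2 change of -0.35 (standard error 0.10, adjusted p = 0.0216). The EEF1E1 call was lost without control replicate 3 or 4 or KO replicate 2 (adjusted p = 0.0596, 0.0568 and 0.0723). AIMP2 had a log2 change of 0.03. Synthetases also fall into 2 structural classes with unrelated catalytic domains. In the xenografts 11 of 18 class I genes fell and 1 rose, with a median of -0.38, while 4 of 19 class II genes fell and 1 rose, with a median of -0.07. Of all genes 21.2% rose and 19.9% fell there, so that the class II share of lower calls was near that of all genes. In shAMB the class I genes numbered 4 higher and 10 lower (median -0.32) and the class II genes 5 higher and 6 lower (median -0.04), beside 37.6% higher and 28.4% lower of all genes. The difference between the classes was not tested.

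HARS and HARS2, the cytosolic and mitochondrial histidyl-tRNA synthetase genes, were singled out after their values were seen, because they start back to back on chromosome 5 and moved apart. The 84 bases between their start sites (GRCh38.p14, + strand, chr5:140691371-140691454) are shown in lower case with no letters marked, and HARS is read leftward and HARS2 rightward from them.
HARS and HARS2 shared start region: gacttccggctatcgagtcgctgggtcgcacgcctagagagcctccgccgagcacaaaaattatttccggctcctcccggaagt
In shAMB HARS rose from 95.5, 93.6 and 96.3 to 130.3, 136 and 134 CPM, with a log2 change of 0.49 (standard error 0.045, adjusted p = 1.69e-07). HARS2 fell from 72.5, 77.2 and 76.7 to 59.8, 59.2 and 55.5 CPM, with a log2 change of -0.38 (standard error 0.046, adjusted p = 3.53e-06). The ratio of HARS to HARS2 per kilobase went from 1.42 ± 0.0592 to 2.58 ± 0.129 (SD, n = 3). In the xenografts the ratio was 2.095 ± 0.198 in controls and 3.11 ± 0.158 in tumours labelled KO (SD, n = 4). There HARS rose with a log2 change of 0.34 (standard error 0.094, adjusted p = 0.0135), and HARS2 had a log2 change of -0.23 that was not called (adjusted p = 0.0607). In sh4 neither gene was called.

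Base composition moved with the shAMB values. GC content over exons ran from 40.1% in DARS to 61.9% in FARSA among the members. For the 3601 tested genes of highest GC content (56.9% to 73.5%) the median log2 change in shAMB was 0.73, and for the 3602 of lowest (31.0% to 43.8%) it was -0.15. In sh4 the same bins had medians of -0.24 and 0.10, in EV 0.23 and -0.08, and in the xenografts the matching bins had 0.09 and 0.01. FARSA, SARS2, VARS, VARS2 and AARS2 lay in the highest bin. With trends over GC content and gene length removed, the log2 change of FARSA in shAMB was -0.00 in place of 0.84 (adjusted p = 0.982). Those of SARS2 and AARS2 were 0.41 and 0.13 in place of 1.25 and 0.75, that of VARS2 was -0.13 and no longer called, and that of VARS was -0.49 in place of 0.30. EARS2, which has 56.5% GC, was at -1.38 in place of -0.92, AARS at -0.77, QARS at -0.64 and HARS at 0.34. NARS, MARS and PARS2 were at -0.04, -0.05 and 0.05 and were no longer called. With the trends removed 9 members were called higher and 21 lower in shAMB, 8 and 22 in sh4, and 3 and 21 in the xenografts. All genes also turned towards lower calls under this setting, with 32.2% higher and 38.9% lower in shAMB, 24.8% and 31.0% in sh4, and 21.6% and 32.8% in the xenografts. With these trends removed the median of all genes in shAMB was -0.03 in place of 0.10.

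**Figure D5:**
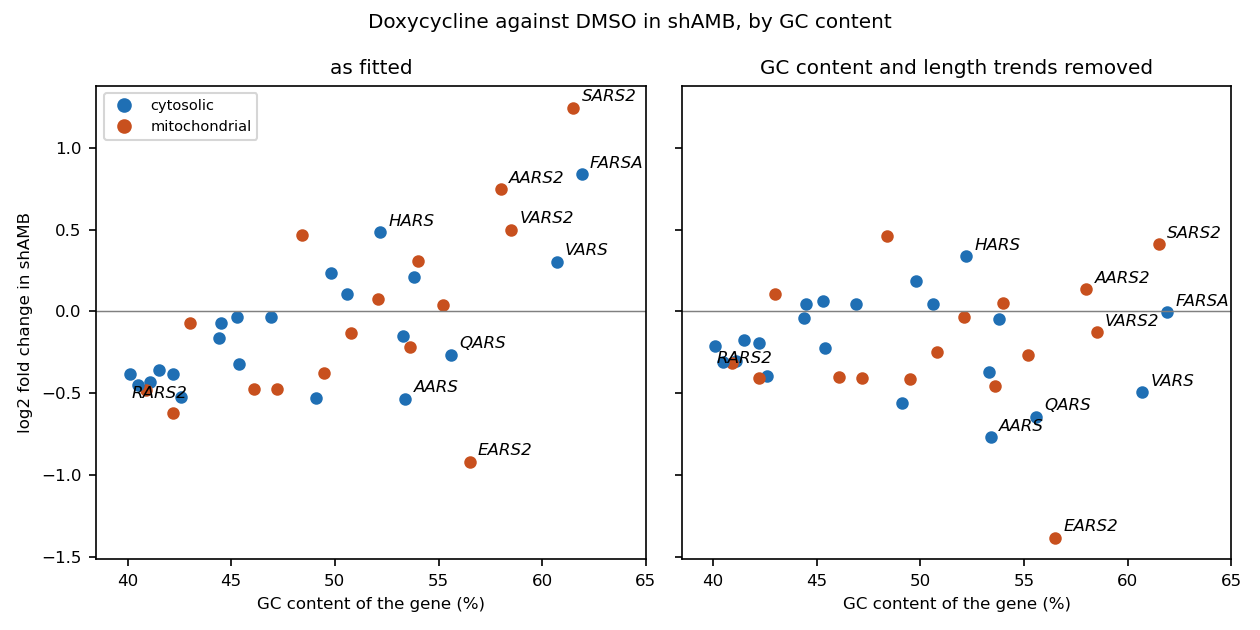
Log2 fold change of 37 synthetase genes in shAMB against their GC content in percent, as fitted (left) and with trends over GC content and length removed across all genes (right), cytosolic in blue and mitochondrial in orange. FARSA moves from 0.84 to -0.00, while EARS2 moves from -0.92 to -1.38.

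Of 12 cytosolic synthetases known to respond to ATF4 (AARS, CARS, EPRS, GARS, IARS, LARS, MARS, NARS, SARS, TARS, WARS and YARS), 3 rose and 1 fell in sh4, 2 rose and 7 fell in shAMB, and 4 fell in the xenografts. Their medians were 0.13, -0.24 and -0.16. Of all genes 22.9% rose and 18% fell in sh4, 37.6% and 28.4% in shAMB, and 21.2% and 19.9% in the xenografts, so that the share that rose in sh4 was near that of all genes. In the difference between the hairpins 8 of the 12 were higher in sh4 and 1 lower, with a median of 0.35. Of the other 9 cytosolic genes, 2 were higher and 3 lower, with a median of -0.03, and of all genes 27.8% were higher and 33.1% lower. Among the genes shown above with the C/EBP-ATF element, AARS and IARS were called in both lines, GARS and NARS fell in shAMB by 0.32 and 0.16, MARS rose by 0.21, and the mitochondrial gene YARS2 fell by 0.47. CARS and TARS were called in neither line and had log2 changes in shAMB of -0.15 and -0.04. Of the genes with an E-box, EARS2 and IARS fell in shAMB, MARS2 rose, and CARS2 had a log2 change of 0.04 that was not called.

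ATF4 and its targets that are no synthetases were counted together, as a list of 20 tested genes. Of these, 10 rose and 1 fell in sh4, 8 rose and 8 fell in shAMB, and 4 rose and 6 fell in the xenografts. The medians were 0.22, 0.16 and 0.10. The shares of all genes were 22.9% higher and 18% lower in sh4, 37.6% and 28.4% in shAMB, and 21.2% and 19.9% in the xenografts, so that the shares that rose in shAMB and the xenografts were near those of all genes. Set against the doxycycline effect in EV, 5 of the list were higher and 1 lower in sh4 (median 0.06), against 17.8% and 14.7% of all genes. In shAMB 2 were then higher and 8 lower (median -0.02), against 23.7% and 21.7% of all genes. ATF4 itself, counted among these 20, rose in sh4 by 0.24 and fell in shAMB and the xenografts, with log2 changes of -0.42 and -0.28. Set against its change in EV, the rise of ATF4 in sh4 did not pass the test (0.13, adjusted p = 0.123). Several genes of amino acid supply in this list also rose in sh4 and fell in shAMB. ASNS, which makes asparagine, had log2 changes of 0.56 in sh4 and -0.57 in shAMB. PSAT1 and PSPH, of serine synthesis, had 0.37 and 0.37 in sh4, and -0.60 and -0.98 in shAMB, all called. PHGDH, the first enzyme of serine synthesis, was at -0.07 in sh4 (not called), -2.19 in shAMB and -2.31 in the xenografts. These genes were picked from the list. The 8 of the list that rose in shAMB were ATF3, CHAC1 (1.39), CTH (0.39), DDIT3, DDIT4 (0.93), SESN2, SLC3A2 (0.41) and VLDLR. Of these 8, only CTH and DDIT4 passed the test when set against EV, and CHAC1 did not (0.78, adjusted p = 0.0806). In sh4 ATF3, CHAC1, CTH and VLDLR rose as well, and DDIT3 fell (-0.37). WARS, the cytosolic tryptophanyl enzyme and a known interferon-stimulated gene, rose in shAMB, where 4 of 8 tested interferon-stimulated genes rose and none fell, beside 37.6% of all genes higher. In the xenografts 5 of 9 rose, beside 21.2% of all genes, and WARS had a log2 change of 0.14 that was not called.

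The partners of the synthetases were counted in the same comparisons, in which 22.9% of all genes rose and 18% fell in sh4, 37.6% and 28.4% in shAMB, and 21.2% and 19.9% in the xenografts. All 5 genes of the cytosolic elongation factor 1 complex, which carries charged tRNA to the ribosome, fell in sh4, with a median of -0.72. EEF1A1 had log2 changes of -0.77, -0.93 and -0.96 in sh4, shAMB and the xenografts, all called, and 0.03 in EV. EEF1A2, its neuronal and muscle form, was at -1.01 in sh4 and 1.49 in shAMB, both called. Of 4 mitochondrial elongation factor genes, 1 fell in sh4, 2 fell in shAMB as in the xenografts, and none rose. Of 4 genes for the mitochondrial route to glutaminyl-tRNA and for formylation of methionyl-tRNA, 3 fell in shAMB, namely GATC (-0.47), QRSL1 (-0.19) and MTFMT (-0.65). Of 5 genes for proofreading and release of tRNA, 2 fell and 1 rose in shAMB, and DTD1, a deacylase of D-aminoacyl-tRNA, had log2 changes of -0.85, -0.94 and -1.32 in sh4, shAMB and the xenografts, all called. Of 20 genes for tRNA maturation and export, 1 rose and 5 fell in sh4, 3 rose and 11 fell in shAMB (median -0.22), and 1 rose and 6 fell in the xenografts. XPOT, the export receptor of tRNA, rose in sh4 (0.25), though not past the test against EV (adjusted p = 0.0503), and fell in shAMB (-0.59) and the xenografts (-0.34).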

How the data were processed

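RNA was sequenced in 26 libraries, prepared per the labels from polyA RNA but with a kit for stranded total RNA. The submitters' processing notes name STAR, RSEM, SAMtools and hg38. The authors deposited RSEM expected counts per gene with a gene length, and TPM values, which the authors scaled by gene length within each library. TPM served only as an alternative for levels. Whether counting used strand is not given in the sources used here. Expected counts were rounded, scaled by TMM, filtered with filterByExpr (14905 genes tested in culture, 15960 in xenografts) and tested with the two-sided quasi-likelihood test of edgeR 4.0.16 in R 4.3.3, adjusted by Benjamini-Hochberg across the genes of each table. All 18 culture libraries shared 1 fit and the 8 xenograft libraries another, so that levels in the culture and xenograft tables were scaled separately. The fit was checked on simulated counts. Alternatives were DESeq2 1.42.0, RLE factors, no filter, a replicate block, GC content and length trends removed (mgcv 1.9.3), fewer libraries and other memberships of the lists. GC content was found for all 38 members.

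Values in every library are given for the 4 cytosolic and 3 mitochondrial genes with the largest absolute change among those called in each comparison. They are also given for up to 6 genes called in opposite directions in sh4 and shAMB, and for AIMP1, AIMP2 and EEF1E1. Members and lists were chosen with earlier results of these data known. HARS and HARS2 were added after their values were seen. The lists hold known genes of each pathway, and "called" means an adjusted p under 0.05. A single mitochondrial gene is counted in the totals but not reported here by itself.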

Additional observations from a re-analysis of the deposited data

Results flagged for a closer look

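SARS and YARS stood apart in control xenograft 2, at 239.994 CPM for SARS against 294 to 303 CPM in the other controls, and at 110.31 CPM for YARS against 128 to 131 CPM. The gap to the nearest control was above Dixon's 95% critical value for 4 samples in these 2 of 76 sets of 4 xenografts tested, and chance passes about 1 in 20.

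The doxycycline effect differed between sh4 and shAMB, by a test of the difference itself, for each of the 8 genes called in opposite directions. These genes were picked by those calls in the same libraries, so that the test was nearly bound to pass and adds no support. The difference of the log2 changes, sh4 minus shAMB, was 1.13 for EARS2, 0.95 for RARS2, 0.75 for IARS, 0.72 for AARS, 0.68 for YARS, -0.44 for WARS, -0.63 for MARS2 and -1.29 for AARS2. Over all 38 genes such a difference was called for 27 between sh4 and shAMB, for 10 between sh4 and EV, and for 23 between shAMB and EV.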

How the results depend on the processing

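The number of synthetase genes called in sh4 was the least steady. It was 15 as reported, 30 with GC content and length trends removed, 5 when only the sh4 libraries were fitted, and 9 to 23 when 1 library was left out (9 without DMSO replicate 1, 23 without doxycycline replicate 3). The number that differed between sh4 and EV was 10, 22 with the trends removed, and 8 to 18 without 1 library (18 without sh4 doxycycline replicate 3). For sh4 against EV with DMSO it was 0, against 1 with the trends removed, 1 by DESeq2, and 0 to 1 without 1 library (1 without EV DMSO replicate 3). Counts in shAMB stayed at 22 to 25 and in the xenografts at 12 to 20 without 1 library.

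The cytosolic median log2 change in EV was -0.0255 with RLE factors, 0.0568 with the trends removed, 0.0165 with TARSL2 counted as mitochondrial, and -0.0049 to 0.0412 without 1 library (0.0034 without doxycycline replicate 2). The mitochondrial median in EV ran from -0.0015 to 0.1126 without 1 library. In sh4 the mitochondrial median was -0.1515 with the trends removed and -0.1896 to -0.0757 without 1 library. In shAMB the cytosolic median was -0.2375 with RLE factors, -0.2077 without the filter and -0.2134 with TARSL2 as mitochondrial. The mitochondrial median there was -0.1476, -0.1178 and, with the trends removed, -0.2494, and -0.1009 to -0.0409 without 1 library. The alternative with TARSL2 was chosen after seeing the data. RLE factors moved the median of all genes in shAMB from 0.10 to 0.02. FARSA in shAMB turned to -0.0025 with the trends removed, and the cause was not tested. Of the 34 values of genes named by rule, all 34 kept their direction and call with DESeq2, RLE factors and no filter each, and 246 of 258 without 1 library.

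Replicate numbers did not pair the samples, with correlations of same-numbered deviations from -0.60 to 0.37. With the replicate block the counts called were 0, 14, 26 and 12 for EV, sh4, shAMB and the xenografts, and 11, 21 and 27 for sh4 minus EV, shAMB minus EV and sh4 minus shAMB. Of all genes, 22.2% were then higher and 17.9% lower in sh4, 37.2% and 28.3% in shAMB, and 16.0% and 14.9% in the xenografts. The call of EEF1E1 in the xenografts was lost (adjusted p = 0.0542).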
